A study of Mus musculus with 7 samples.

Results

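The 10 genes described here make, degrade and regulate the polyamines, or attach the polyamine-derived residue hypusine to its target protein. They were taken by symbol from the table of counts for cultured CD8+ T cells (*Odc1*, *Amd1*, *Srm*, *Sms*, *Sat1*, *Smox*, *Oaz1*, *Azin1*, *Dhps* and *Dohh*). All 10 were present among the 55367 genes of the table, and all 10 averaged 5 or more counts per library, as did the 12623 genes that were tested. The cells were sorted by FACS as CD8+ T cells from spleens of mice carrying the Foxp3 YFP/cre allele, which drives YFP and Cre recombinase from the *Foxp3* gene of regulatory T cells and was shared by every culture. In 4 libraries the cells had received HCME-sEVs (the labels' control EVs), small extracellular vesicles from the spleens of healthy mice. In 3 libraries they had received LME-sEVs (leukemia EVs), taken from spleens of leukemic Eμ-TCL1 mice, in which an immunoglobulin enhancer drives the TCL1 oncogene in B cells. These group sizes follow the labels of the libraries, while a legend of the study gives them the other way round, and the direction of every difference here rests on the labels. The labels give 100 μg/mL of vesicles and 48 hours for every culture, whereas the methods speak of the amount present in a spleen of each kind. The methods describe CD8+ T-cell cultures on anti-CD3 with CD28 antibody and IL2, without naming these libraries. The labels give no age, and the methods give a general age of 8 to 10 weeks for mice where nothing else is stated. Neither source says whether libraries came from separate animals, so the p-values measure the spread between these libraries, which may be technical.

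Polyamines are small positively charged molecules that bind nucleic acids and that proliferating cells, activated T cells among them, need in quantity. Ornithine decarboxylase (*Odc1*) makes putrescine, and spermidine synthase (*Srm*) and spermine synthase (*Sms*) extend it with aminopropyl groups that S-adenosylmethionine decarboxylase (*Amd1*) prepares. Spermidine also donates the group from which deoxyhypusine synthase (*Dhps*) and deoxyhypusine hydroxylase (*Dohh*) build hypusine on the translation factor eIF5A. Much of the control of ODC lies in its translation and turnover, which counts of transcripts do not measure.

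Libraries held between 3689831 and 5030522 counts of UMI-tagged 3′ ends. Levels are given as CPM, the counts scaled to a common library size after TMM normalization (trimmed mean of M-values), and 3 counts, the smallest level taken as detectable, were worth between 0.582 and 0.807 CPM. Differences are log2 fold changes of LME-sEVs over HCME-sEVs from edgeR's quasi-likelihood test, and a gene was called when its FDR, adjusted by Benjamini and Hochberg over all 12623 genes, was under 0.05. Replicates differed by more than counting noise, the chi-square per degree of freedom being 4.54 to 6.66 for pairs holding HCME-sEV library 1 and of 2.19 to 3.96 for other pairs, so values without that library are given beside each called gene of the pathway and *Max*. Across all tested genes 658 were lower (5.21%) and 473 higher (3.75%). Without LME-sEV library 2 the counts were 223 lower and 168 higher, without LME-sEV library 3 they were 263 and 195, and without HCME-sEV library 2 they were 422 and 301.

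Of the 10 genes, 3 fell with LME-sEVs, *Srm*, *Azin1* and *Dohh*. None rose, and 7 were not called. At an unadjusted p under 0.05 there were 0 higher and 4 lower, *Dhps* being the fourth. Such p-values were common, since *Dhps* ranked only 2734 by p among the 12623 tested genes, both directions together. DESeq2 and limma-voom also called 0 higher and 3 lower of the 10. The 3 of 10 stand beside 5.21% of all tested genes called lower. Since 9 of the 10 averaged at least 100 counts per library, where more genes can be called, the corresponding share among the 6092 genes of that depth is also given, 8.34%. Levels in the 2 groups were without overlap for the same 3 genes, all lower with LME-sEVs, where 10.8% of all tested genes were lower without overlap. Under the stricter rule of the study's methods, which adds a log2 fold change beyond 1, 0 of the 10 qualified, against 1.28% of all tested genes. The median log2 fold change of the 10 genes was -0.10, with 4 positive and 6 negative values from -0.65 to 0.36, and that of all tested genes was 0.0095.

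**Figure D1:**
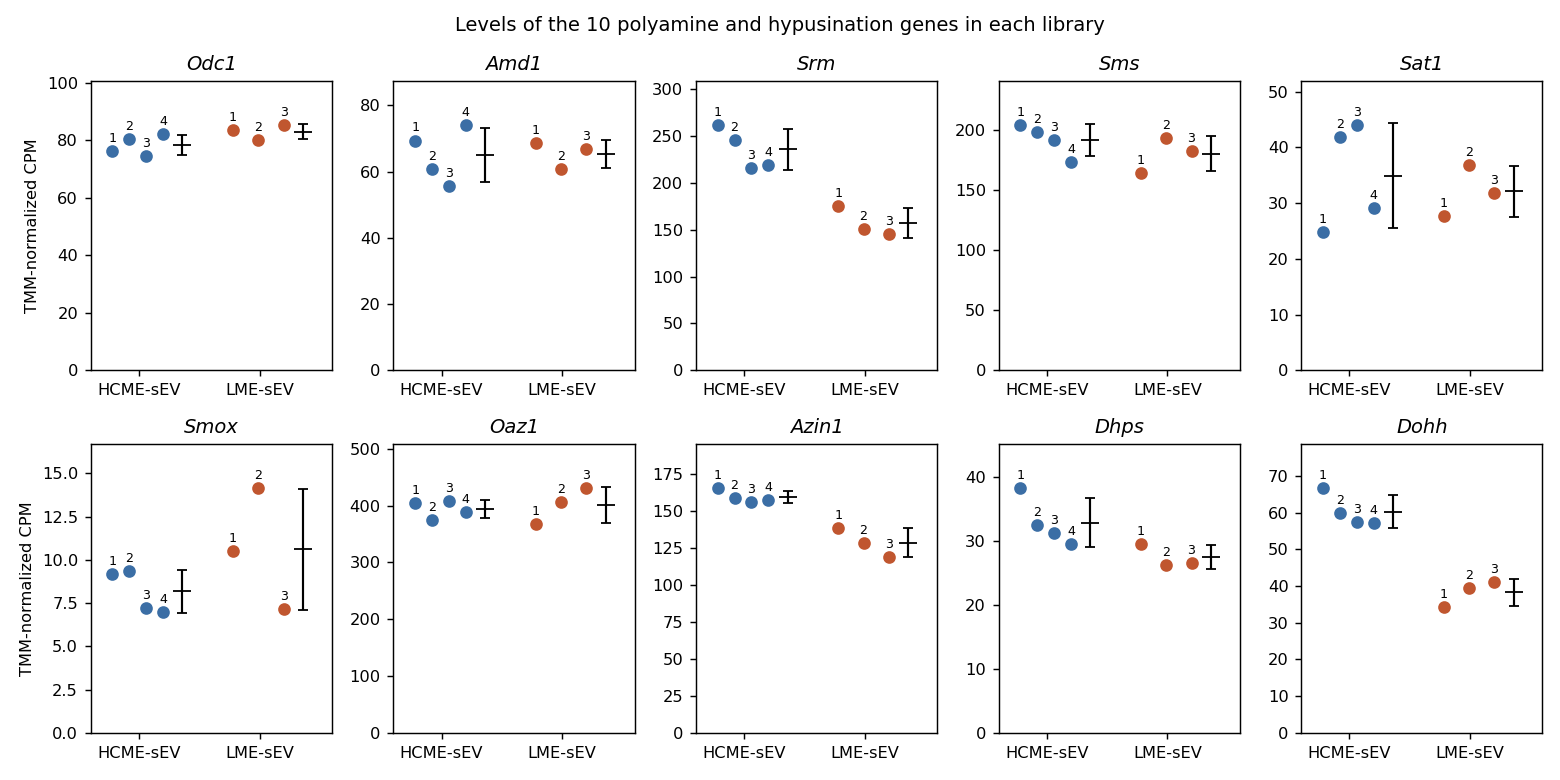
TMM-normalized CPM of each of the 10 genes (y axis from 0, a separate scale per gene) in the 4 HCME-sEV libraries (blue, numbered 1 to 4) and the 3 LME-sEV libraries (orange, numbered 1 to 3), with mean ± SD in black to the right. The points of the groups separate for *Srm*, *Azin1* and *Dohh*, with LME-sEVs lower, and overlap for the other 7 genes.

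*Srm* encodes the enzyme that turns putrescine into spermidine and lies on chromosome 4 of GRCm38 from 148591503 to 148594993 on the plus strand (GENCODE vM21, as for all genes here). Its levels were 262, 246, 216 and 219 CPM in HCME-sEV libraries 1 to 4 and 175, 151 and 145 CPM in LME-sEV libraries 1 to 3. Every LME-sEV library lay below every HCME-sEV library. The controls averaged 236 ± 21.9 CPM (SD, n = 4) and the LME-sEV libraries 157 ± 16.0 CPM (SD, n = 3), a change of -33.6%. The log2 fold change was -0.59 (standard error 0.090, 95% interval -0.78 to -0.40, FDR = 4.90e-04, edgeR test as above). *Srm* ranked 54 by p among the 12623 genes. Without HCME-sEV library 1, which had its highest level, the log2 fold change was -0.54 (FDR = 3.30e-04, same edgeR test). The search for near-identical 3′ ends found none for *Srm*.

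The other synthesis genes were not called. *Odc1*, the first enzyme of the pathway (chromosome 12 from 17544794 to 17551505, plus strand), was at 76.4, 80.6, 74.7 and 82.2 CPM with HCME-sEVs and at 83.7, 80.2 and 85.3 CPM with LME-sEVs. The groups overlapped within a narrow band, and their means ± SD were 78.5 ± 3.51 CPM (n = 4) for HCME-sEVs against 83.1 ± 2.59 CPM (n = 3) for LME-sEVs. On the log2 scale the difference was 0.08 (standard error 0.086, FDR = 0.626, same edgeR test), and the 95% interval from -0.10 to 0.26 lay wholly above that of *Srm*, although the difference between the genes was not tested. Processed pseudogenes with a nearly identical 3′ end, *Gm7450* and *Gm9115*, took 0 to 2 and 4 to 9 counts per library.

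*Amd1* (chromosome 10 from 40287458 to 40302186, minus strand) was at 69.4, 60.8, 55.7 and 74.0 CPM with HCME-sEVs and at 68.6, 60.7 and 66.7 CPM with LME-sEVs. The LME-sEV values lay inside the range of the controls, with means of 65.0 ± 8.24 CPM (SD, n = 4) and 65.3 ± 4.14 CPM (SD, n = 3). Their log2 fold change was 0.0033 with a 95% interval from -0.21 to 0.22 (FDR = 0.990, same edgeR test). *Amd1* shares its 3′ end with 7 near-identical genes, among them the protein-coding copy *Amd2* at 7 to 11 counts, so reads that fit several copies may be missing from its count.

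*Sms*, which extends spermidine to spermine, lies on chromosome X from 157443855 to 157492287 on the minus strand. It was at 204, 198, 192 and 173 CPM with HCME-sEVs and at 164, 193 and 183 CPM with LME-sEVs. LME-sEV library 1 was the lowest of the 7, and the other values were mixed. The means were 192 ± 13.3 CPM (SD, n = 4) and 180 ± 14.7 CPM (SD, n = 3), with a log2 fold change of -0.09 (standard error 0.084, 95% interval -0.26 to 0.09, FDR = 0.583, same edgeR test).

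The catabolic genes varied more between replicates than the synthesis genes. They also had fewer counts per library, averaging 141 (*Sat1*) and 38.7 (*Smox*) against 275 (*Amd1*) to 840 (*Srm*) for the synthesis genes. How much of their spread was counting noise was not tested. *Sat1*, spermidine/spermine N1-acetyltransferase, which marks polyamines for oxidation and export (chromosome X from 155213132 to 155216449, minus strand), was at 24.8, 41.8, 44.0 and 29.1 CPM with HCME-sEVs and at 27.7, 36.9 and 31.8 CPM with LME-sEVs. HCME-sEV libraries 1 and 4 were low and 2 and 3 high, and the LME-sEV values fell within the range of the controls. The coefficient of variation was 27.0% with HCME-sEVs and 14.3% with LME-sEVs, and the log2 fold change was -0.11 (standard error 0.16, 95% interval -0.45 to 0.23, FDR = 0.760, same edgeR test).

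*Smox*, spermine oxidase (chromosome 2 from 131491496 to 131525922, plus strand), was the lowest of the 10 genes at 27 to 63 counts per library. Its levels were 9.16, 9.38, 7.20 and 6.98 CPM with HCME-sEVs and 10.5, 14.2 and 7.17 CPM with LME-sEVs. LME-sEV libraries 1 and 2 lay above all controls, and library 3 among them. The log2 fold change was 0.36 (standard error 0.23, 95% interval -0.12 to 0.84, FDR = 0.377, same edgeR test), and at this depth neither a moderate rise nor no difference at all could be told from it. With single libraries left out it ranged from 0.08 to 0.60.

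The opposing regulators of ODC differed in what they showed. *Oaz1* encodes antizyme, which binds ODC and delivers it to the proteasome, and lies on chromosome 10 from 80826656 to 80829290 on the plus strand. It was the most abundant of the 10 genes at 404, 374, 408 and 388 CPM with HCME-sEVs and 367, 406 and 431 CPM with LME-sEVs. LME-sEV library 1 was the lowest of the 7 and library 3 the highest. Between the groups the log2 fold change was 0.030 (standard error 0.076, 95% interval -0.13 to 0.19, FDR = 0.866, same edgeR test). Antizyme is made through a ribosomal frameshift that polyamines promote, a step that these counts do not measure.

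*Azin1* encodes antizyme inhibitor, an ODC-like protein without enzymatic activity that binds antizyme and so frees ODC, and lies on chromosome 15 from 38487427 to 38519266 on the minus strand. It fell with LME-sEVs, from 166, 159, 156 and 158 CPM in HCME-sEV libraries 1 to 4 to 139, 128 and 119 CPM in LME-sEV libraries 1 to 3. The controls lay within a narrow range, and all LME-sEV libraries were below it. The means were 159 ± 4.18 CPM (SD, n = 4) and 129 ± 9.77 CPM (SD, n = 3), a change of -19.5%. The log2 fold change was -0.31 (standard error 0.080, 95% interval -0.48 to -0.15, FDR = 0.0180, rank 615 by p, same edgeR test). Without HCME-sEV library 1 it was -0.30 (FDR = 0.0281). The call was lost without LME-sEV library 2 (-0.31, FDR = 0.0810) and without LME-sEV library 3 (-0.26, FDR = 0.132).

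Both hypusination enzymes had negative log2 fold changes, and *Dohh* passed the test. *Dohh* completes hypusine by hydroxylation and lies on chromosome 10 from 81384428 to 81388352 on the plus strand. It was at 66.7, 59.8, 57.3 and 57.3 CPM with HCME-sEVs and at 34.2, 39.6 and 41.1 CPM with LME-sEVs. The highest LME-sEV library stayed well below the lowest control. The means were 60.3 ± 4.46 CPM (SD, n = 4) and 38.3 ± 3.64 CPM (SD, n = 3), a change of -36.2%, the largest in size of the 10 genes in percent. Its log2 fold change was -0.65 (standard error 0.10, 95% interval -0.87 to -0.43, FDR = 7.08e-04, rank 79 by p, same edgeR test), and without HCME-sEV library 1 it was -0.60 (FDR = 0.00107). An exon of the predicted gene *Gm48551*, on the same strand, overlaps *Dohh* and took 0 to 5 counts per library.

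*Dhps*, which carries out the first step on eIF5A, lies on chromosome 8 from 85071757 to 85075162 on the plus strand. Its levels were 38.3, 32.4, 31.2 and 29.57 CPM with HCME-sEVs and 29.60, 26.3 and 26.6 CPM with LME-sEVs. The groups met at LME-sEV library 1, which lay just above HCME-sEV library 4. The log2 fold change of -0.26 (standard error 0.12, 95% interval -0.52 to -0.0067) did not pass the adjustment (unadjusted p = 0.0448, FDR = 0.207, same edgeR test). Without HCME-sEV library 1, the highest, it was -0.18 (FDR = 0.446). *Wdr83*, on the opposite strand, overlaps exons of *Dhps* at 46 to 87 counts, and the strand setting of the counting is not given in the sources used here.

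The promoter of *Dohh* is shown because *Dohh* fell and its window holds CACGTG, the E-box that MYC with its partner MAX is known to bind. That of *Sms* is shown as the other gene of the 10 with a match. That of *Odc1*, a textbook MYC target, is shown as the first step of the pathway, without a match to CACGTG in its window. Sequence outside the windows was not searched. Sequences are from RefSeq on GRCm38.p6 and run from 250 bases before the transcript start to 30 bases after it, with the E-box in capitals. The windows are chr10:81384184-81384463 on the plus strand for *Dohh*, chrX:157492258-157492537 on the minus strand for the first of the start sites of *Sms* and chr12:17544623-17544902 on the plus strand for *Odc1*.
Dohh: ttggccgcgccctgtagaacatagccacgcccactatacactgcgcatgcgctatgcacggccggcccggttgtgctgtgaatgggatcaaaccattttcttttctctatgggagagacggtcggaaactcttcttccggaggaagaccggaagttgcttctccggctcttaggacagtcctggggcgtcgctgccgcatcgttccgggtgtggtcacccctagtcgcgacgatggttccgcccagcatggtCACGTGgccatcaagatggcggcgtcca
Sms: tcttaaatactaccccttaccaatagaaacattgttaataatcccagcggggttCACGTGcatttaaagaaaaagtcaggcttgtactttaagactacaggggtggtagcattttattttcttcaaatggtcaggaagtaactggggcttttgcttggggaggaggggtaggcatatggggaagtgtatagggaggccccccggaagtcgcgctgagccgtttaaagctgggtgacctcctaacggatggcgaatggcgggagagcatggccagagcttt
Odc1: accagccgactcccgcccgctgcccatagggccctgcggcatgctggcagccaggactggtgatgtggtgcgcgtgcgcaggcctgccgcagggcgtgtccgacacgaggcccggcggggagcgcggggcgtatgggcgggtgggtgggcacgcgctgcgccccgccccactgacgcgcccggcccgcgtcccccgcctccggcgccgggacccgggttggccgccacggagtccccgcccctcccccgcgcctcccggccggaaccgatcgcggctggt
The motif begins at position 3 of *Dohh*, counting the transcript start as 1, and 196 bases before the start in *Sms* (position -196). CACGTG reads the same on both strands. It was found for 2 of the 8 genes that matched the table (*Srm* and *Azin1* have no entry), and in 2232 of all 32851 promoters (6.79%), or 2083 of 27025 genes (7.71%). The related hexamer CACGCG was also searched on both strands, without marking it in the sequences. It was found for 3 of the 8 genes, *Odc1* (2 matches), *Oaz1* and the second start site of *Sms*, and in 2843 of all 32851 promoters (8.65%), or 2653 of 27025 genes (9.82%). A match describes the letters of a window and shows neither binding nor use of the site.

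Among the 10 genes, abundance in HCME-sEV cultures ran from *Oaz1* at 394 CPM through *Srm* (236), *Sms* (192), *Azin1* (159), *Odc1* (78.5), *Amd1* (65.0), *Dohh* (60.3), *Sat1* (34.9) and *Dhps* (32.9) to *Smox* (8.18). Each molecule gives 1 tag whatever its length, so these means compare numbers of captured 3′ ends. The libraries of *Amd1* and *Dohh* overlapped, as did those of *Sat1* and *Dhps*, and no other neighbours in this order did. With LME-sEVs *Sms* (180) stood before *Srm* (157), though their libraries overlapped, and *Dohh* (38.3) overlapped with *Sat1* (32.1).

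Ratios of counts within a library do not depend on the scaling between libraries. They were computed after the single-gene results were known and are given without a test. *Srm* over *Odc1* was 3.43, 3.05, 2.90 and 2.67 in HCME-sEV libraries 1 to 4 and 2.09, 1.88 and 1.70 in LME-sEV libraries 1 to 3, so the groups did not overlap. *Srm* over *Sms* was 1.28, 1.24, 1.13 and 1.26 against 1.07, 0.779 and 0.793. Since *Srm* was called lower while *Odc1* and *Sms* were not, these ratios restate the single-gene results and add no separate support. The same holds for the ratios below that contain *Dohh* or *Azin1*.

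*Dohh* over *Dhps* was 1.74, 1.84, 1.84 and 1.94 with HCME-sEVs and 1.15 to 1.55 with LME-sEVs, again without overlap. *Oaz1* over *Azin1* was 2.44, 2.36, 2.62 and 2.46 with HCME-sEVs and 2.65, 3.17 and 3.62 with LME-sEVs. Antizyme transcripts per antizyme inhibitor transcript were higher in every LME-sEV library, by little in library 1. *Odc1* over *Azin1* was 0.461 to 0.521 with HCME-sEVs and 0.604 to 0.717 with LME-sEVs, and *Odc1* over *Amd1* overlapped between the groups.

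**Figure D2:**
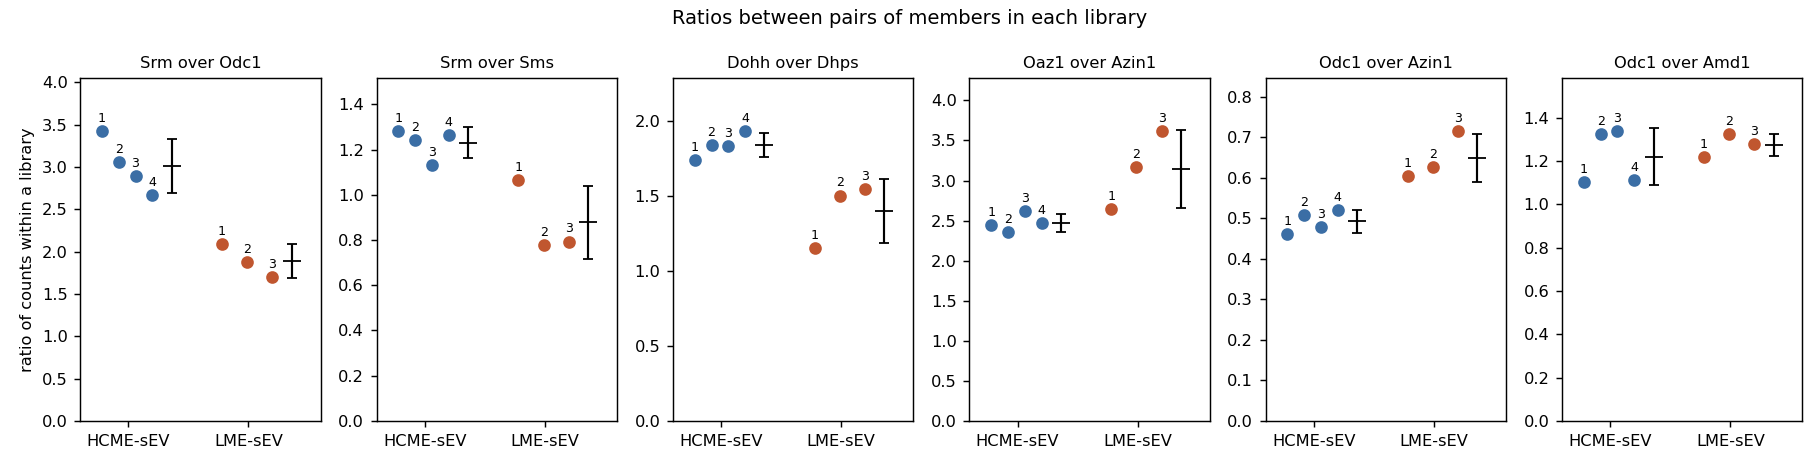
Ratios of counts between pairs of genes within each library (y axis from 0, no unit), for the 4 HCME-sEV libraries (blue) and the 3 LME-sEV libraries (orange), with mean ± SD in black to the right. *Srm* over *Odc1* averaged 3.01 ± 0.32 with HCME-sEVs and 1.89 ± 0.20 with LME-sEVs. Of the ratios drawn, *Odc1* over *Amd1* is the one whose groups overlap and the one without a called gene.

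Beyond the 10 genes, 24 genes that feed the pathway, move its products or carry hypusine were listed, and 18 of them were tested. With LME-sEVs 3 fell (*Eif5a*, *Mat2a* and *Mtap*), 0 rose and 15 were not called, where 5.21% of all tested genes were called lower and 3.75% higher. Among genes averaging at least 100 counts, 8.34% were called lower. At an unadjusted p under 0.05 there were 6 lower and 1 higher (*Mri1*). Such p-values were common, since *Mri1* ranked only 2757 by p among the 12623 tested genes, both directions together. DESeq2 and limma-voom called 3 lower and 0 higher of the 18. The median log2 fold change was -0.13, from -0.46 to 0.24. The count of 3 became 1 without LME-sEV library 2 or without LME-sEV library 3, and 5 without HCME-sEV library 3. *Arg2*, *Agmat* and *Oaz3* had 0 counts in all libraries, and *Arg1*, *Sat2* and *Slc18b1* were under the minimum.

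*Eif5a* encodes the protein that carries hypusine and lies on chromosome 11 from 69916714 to 69921958. It was at 810, 783, 668 and 751 CPM with HCME-sEVs and at 613, 660 and 599 CPM with LME-sEVs, so that the highest LME-sEV library came just under HCME-sEV library 3. The log2 fold change was -0.27 (standard error 0.079, FDR = 0.0358, same edgeR test). This call rested on the full set of libraries, since leaving out any library but HCME-sEV library 3 gave an FDR from 0.0521 (without HCME-sEV library 1) to 0.173 (without LME-sEV library 3), at log2 fold changes from -0.31 to -0.23. Scaling by the upper quartile (FDR = 0.0501) or by library size only (FDR = 0.0646) lost it as well. The paralog *Eif5a2*, at 26 to 52 counts, had a log2 fold change of 0.12 (FDR = 0.809).

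The aminopropyl groups come from S-adenosylmethionine, which methionine adenosyltransferase 2A (*Mat2a*) makes, and leave methylthioadenosine, which *Mtap* salvages. *Mat2a* (chromosome 6 from 72432799 to 72439558) was at 608, 508, 459 and 487 CPM with HCME-sEVs and at 412, 358 and 356 CPM with LME-sEVs. The groups did not overlap, the log2 fold change was -0.46 (standard error 0.092, FDR = 0.00373, same edgeR test), and without HCME-sEV library 1, the highest, it was -0.37 (FDR = 0.00322). *Mtap* (chromosome 4 from 89137122 to 89181081) was at 155, 167, 147 and 149 CPM with HCME-sEVs and at 131, 108 and 115 CPM with LME-sEVs. All LME-sEV values were below the controls, with a log2 fold change of -0.39 (standard error 0.087, FDR = 0.00746). It was -0.39 (FDR = 0.00739) without HCME-sEV library 1, -0.33 (FDR = 0.0728) without LME-sEV library 2 and -0.37 (FDR = 0.0528) without LME-sEV library 3. Of the 8 genes on methionine use and methylthioadenosine salvage, these 2 fell and 6 were not called, with a median of -0.14. The regulatory subunit *Mat2b* was at -0.029 (FDR = 0.887), the hydrolase *Ahcy* at -0.20 (FDR = 0.205) and the salvage isomerase *Mri1* at 0.24 (FDR = 0.209).

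None of the 8 tested genes among the remaining enzymes, antizymes and transporters was called. Of these 1, *Slc3a2*, had an unadjusted p under 0.05, at rank 1253 by p among the 12623 genes. *Slc3a2*, the shared heavy chain of several amino acid transporters, had a log2 fold change of -0.28 (FDR = 0.0597). *Slc3a2* was called lower in 3 of 17 alternatives. These were without HCME-sEV library 3 (-0.34, FDR = 0.0151), with no minimum on counts (-0.27, FDR = 0.0458) and by edgeR's likelihood ratio test (-0.28, FDR = 0.0438). *Slc7a1*, which imports arginine and ornithine, was at -0.17 (FDR = 0.223), and the polyamine transporters *Atp13a2* and *Atp13a3* at 0.23 (FDR = 0.406) and -0.028 (FDR = 0.893). *Paox*, which oxidizes acetylated polyamines, was at -0.26 (FDR = 0.244) and was called lower without HCME-sEV library 3 (-0.38, FDR = 0.0319). *Echs1*, on the opposite strand, overlaps exons of *Paox* at 148 to 235 counts, against 119 to 206 for *Paox*, and the strand setting is not given. *Oaz2* was at 0.06 (FDR = 0.886) and *Azin2* at 0.20 (FDR = 0.625), so *Azin1* was the called gene among the tested antizymes and antizyme inhibitors.

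**Figure D3:**
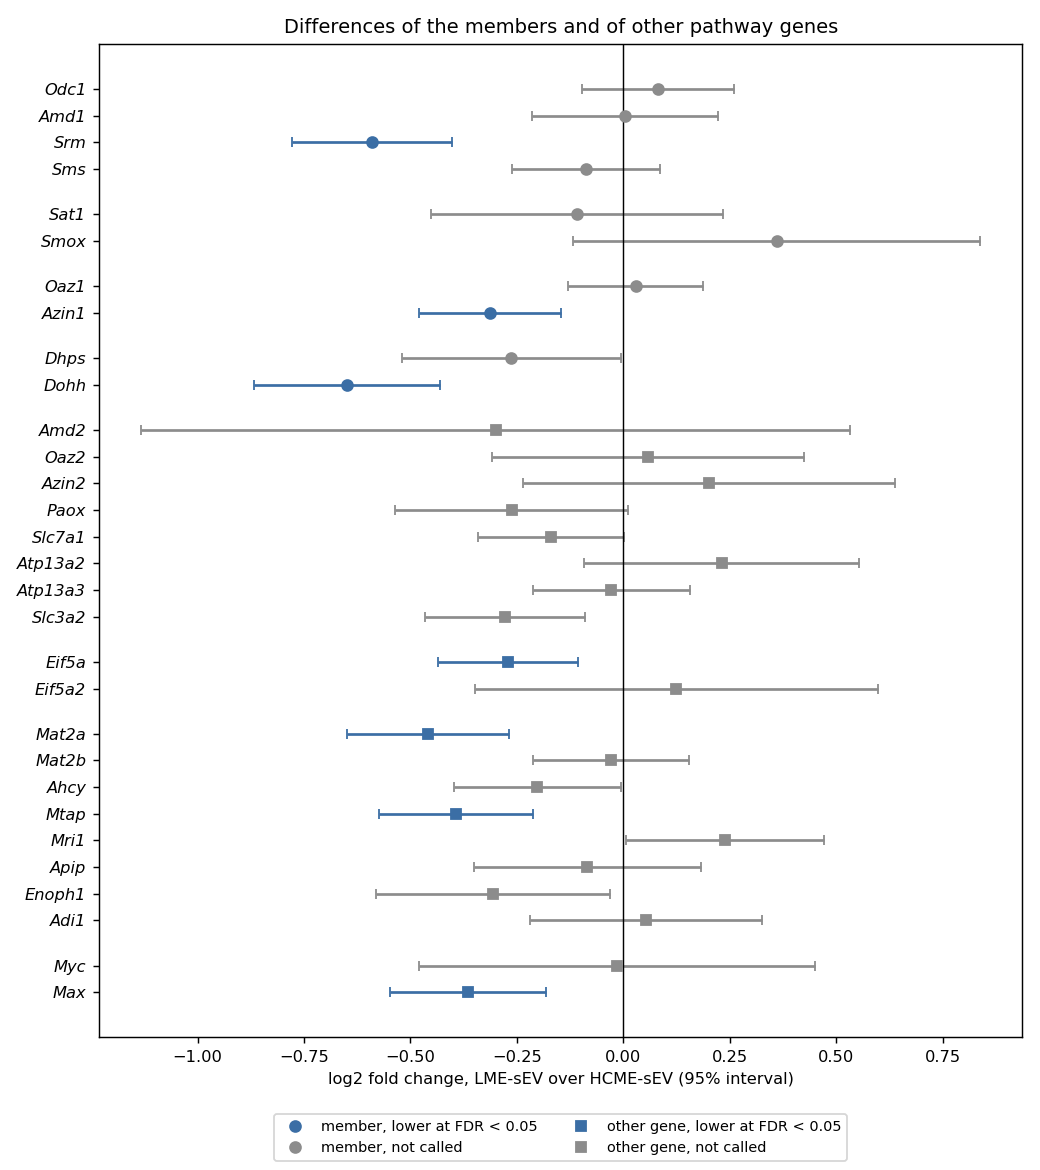
Log2 fold change of LME-sEVs over HCME-sEVs (x axis, points) with its 95% interval (bars) for the 10 genes (circles), the 18 other tested pathway genes, *Myc* and *Max* (squares). Blue marks an FDR under 0.05, all of it on the negative side (*Srm*, *Azin1*, *Dohh*, *Eif5a*, *Mat2a*, *Mtap* and *Max*), and the widest interval belongs to *Amd2*.

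*Myc*, whose protein is known to act on several polyamine genes, was not called, with a wide interval. It was at 36.1, 107, 105 and 75.9 CPM with HCME-sEVs and at 60.5, 83.6 and 93.8 CPM with LME-sEVs, with a log2 fold change of -0.014 (95% interval -0.48 to 0.45, FDR = 0.981, same edgeR test). The controls spread widely. HCME-sEV library 1 had the lowest *Myc* and the highest *Srm*, *Azin1* and *Dohh* of the 7 libraries, while HCME-sEV library 2 had the highest *Myc* and the next highest *Srm*, *Azin1* and *Dohh*. A relation between *Myc* and these genes was not tested. *Max*, the partner of MYC, fell from 227, 196, 185 and 227 CPM to 171, 153 and 164 CPM. Its log2 fold change was -0.36 (FDR = 0.0126), and -0.32 (FDR = 0.0208) without HCME-sEV library 1, -0.32 (FDR = 0.0929) without LME-sEV library 2 and -0.37 (FDR = 0.0588) without library 3.

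Marker genes were read beside these results, and their part in them was not tested. Of 8 CD8 T-cell markers 2 rose (*Cd3e* and *Cd3g*), and the summed level of all 8 was 1868 to 2083 CPM with HCME-sEVs and 2140 to 2469 CPM with LME-sEVs. *Cd8a* was at 341 to 376 CPM against 401 to 435 CPM, while *Cd4* had at most 3 counts and *Foxp3* at most 1. Summed B-cell markers were at 232 to 275 CPM and 311 to 335 CPM, most of it *Ighm* alone, at 220 to 263 CPM and 299 to 325 CPM. *Ighm* was the 1 higher gene of 4 tested out of 10. The other tested ones were not called, with log2 fold changes of 0.17 (*Cd79b*), 0.14 (*Ebf1*) and -0.38 (*Ms4a1*), and *Cd79a* had at most 2 counts. Of 9 basophil, mast-cell and eosinophil markers 7 were tested and 3 rose (*Mcpt8*, *Prss34* and *Prg2*), with sums of 8.91 to 37.5 CPM and 32.6 to 51.5 CPM, lowest in HCME-sEV library 1, and with *Epx* at no more than 2 counts. Of 9 erythroid and platelet markers 7 were tested and 3 rose (*Hba-a1*, *Pf4* and *Ppbp*), with sums of 74.7 to 182 CPM and 158 to 205 CPM. Of 10 myeloid markers 2 were tested and 0 called, with sums of 5.07 to 6.26 CPM and 8.14 to 13.5 CPM. Of the 3 CD4 T-cell markers, *Zbtb7b* was tested and rose, with sums of 5.54 to 13.4 CPM and 14.4 to 16.5 CPM. In such bulk cultures fewer cells expressing a gene and less RNA per cell cannot be told apart.

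**Figure D4:**
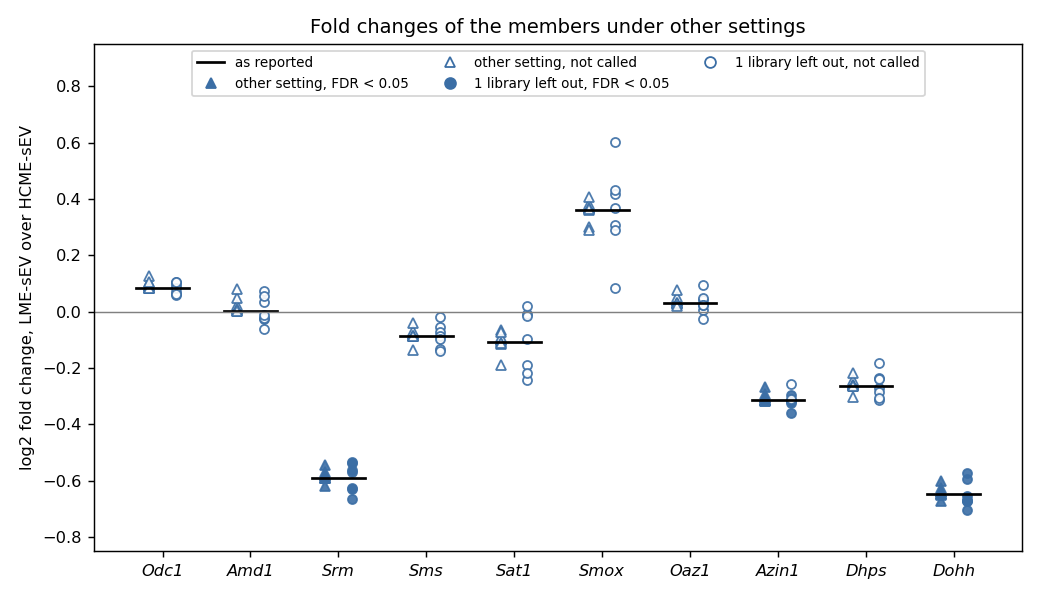
Log2 fold change of LME-sEVs over HCME-sEVs (y axis) for each of the 10 genes (x axis), as reported (black line), under other settings (triangles) and with 1 library left out (circles), filled where the FDR was under 0.05. *Srm* stays between -0.67 and -0.53, *Dohh* between -0.70 and -0.57 and *Azin1* between -0.36 and -0.26, while *Amd1*, *Sat1* and *Oaz1* lie on both sides of 0.

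Both *Srm* and *Dohh* were called lower in all 17 alternatives tried (other filters, scalings and tests, a replicate block and each library left out), with an FDR of at most 0.00832 and 0.00730, and *Azin1* in 15 of the 17.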

How the data were processed

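Libraries of 3′ ends (QuantSeq FWD with UMIs) were made from 4 HCME-sEV and 3 LME-sEV cultures. The authors deposited raw counts per gene symbol, with no normalization or filter. Per the submitters' processing notes, reads were trimmed (cutadapt 2.10), mapped to GRCm38 (STAR 2.5.3a), collapsed by UMI (UMI-tools 1.0.0) and counted (featureCounts, Subread 2.0.0). Collapsing removes PCR copies, and reading the 3′ end keeps gene length out of the level. The annotation release and strand setting are not given in the sources used here.

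Genes averaging at least 5 counts per library were kept, TMM-normalized and compared by the quasi-likelihood functions glmQLFit and glmQLFTest (edgeR 4.0.16, R 4.3.3) without covariates, with Benjamini-Hochberg adjustment over all tested genes. Intervals are at 95%. The steps were tested on simulated counts, drawn independently with the same spread in every library. That test therefore does not cover the larger deviation of HCME-sEV library 1 or replicates that are technical. Alternatives used other filters, scalings, DESeq2 1.42.0, limma 3.58.1 (voom), a replicate block and each library left out. The share among genes averaging at least 100 counts was added after the data were seen. A blast 2.17.0 search looked for near-identical 3′ ends (last 300 bases, 95% identity over at least 200 bases) in GENCODE vM21.

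All genes of the rule are named, and listed pathway genes are given by counts, with values for those called or referred to. The genes and lists were chosen with earlier results of these data known. The level of 1 marker gene is not reported here.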

Additional observations from a re-analysis of the deposited data

How the results depend on the processing

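The stricter rule with a log2 fold change beyond 1 left 0 of the 10 genes called lower and, of all tested genes, 79 higher and 83 lower. With single libraries left out, 2 to 3 of the 10 genes and 1 to 5 of the other pathway genes were called lower, and over all tested genes 168 to 544 were higher and 223 to 761 lower. The lowest of these came without LME-sEV library 2 (the same 2 and 1 also without LME-sEV library 3), and the highest without HCME-sEV library 3 (3 of the 10 genes also without the other controls or LME-sEV library 1). Where direction was not fixed, the log2 fold change with single libraries left out ran from -0.062 to 0.072 for *Amd1*, -0.24 to 0.020 for *Sat1*, -0.025 to 0.095 for *Oaz1*, -0.045 to 0.23 for *Oaz2*, -0.12 to 0.033 for *Atp13a3*, -0.022 to 0.31 for *Eif5a2*, -0.097 to 0.020 for *Mat2b*, -0.19 to 0.0083 for *Apip*, -0.012 to 0.12 for *Adi1* and -0.26 to 0.15 for *Myc*. Scaling by library size only turned *Atp13a3* (0.017), *Mat2b* (0.016) and *Myc* (0.028), the upper quartile turned *Myc* (0.0046), limma-voom turned *Myc* (0.090) and the replicate block turned *Eif5a2* (-0.014). The cause was not tested, and none of these genes was called under any setting. The median of all tested genes lay between 0.0034 and 0.055 on the log2 scale.

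Replicate numbers 1 to 3 are shared by both groups. The deviations of same-numbered libraries from their group means correlated at 0.072, 0.155 and 0.027, and not every library correlated best with its own number. So few correlations cannot settle whether the libraries were paired. With a replicate block, to which HCME-sEV library 4 adds nothing on the difference, the log2 fold change was -0.62 for *Srm*, -0.67 for *Dohh* and -0.32 for *Azin1*, the 10 genes again held 3 lower and 0 higher, and over all tested genes 860 were lower and 594 higher. Depth was lowest for *Smox* among the 10 genes, at no more than 63 counts per library, and for *Amd2* among the other tested pathway genes, at no more than 11.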
